A study of Mus musculus with 2 samples.

Results

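The 84 cytosolic ribosomal protein genes described here are those of the 31053 mouse genes in the data whose symbol starts with Rpl or Rps and a digit, or with Rplp and a digit, together with Rpsa. Genes of the Rps6k kinases, Rps27l, Rps19bp1 and rows named as pseudogenes were left out. The list holds 52 large subunit genes and 32 small subunit genes. Of the 84, 81 reached a mean of 20 counts per 1000000 UMIs (CPM), the level asked of a measured gene. UMIs, unique molecular identifiers, stand for single captured molecules. The members were picked by symbol and not by their values, though earlier results of these data were known.

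The cells came from bone marrow of C57BL/6J mice aged 6 to 8 weeks and were sorted by flow cytometry as LSK cells, which lack lineage markers and carry Sca1 and c-Kit, so the gate holds blood stem cells and early progenitors. A single library came from control mice, and a single library came from mice on day 15 after 5 Gy of total body irradiation. RNA was read from the 3′ ends of transcripts in droplets, and each value is a count of UMIs. How many mice went into each library is not given in the sources used here, and with 1 library per group there is no spread between replicates, no test and no p-value.

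Each ribosome is built from a small subunit that reads the mRNA and a large subunit that joins amino acids, and each subunit needs its set of proteins in matched amounts. The mRNAs of these proteins begin with a run of pyrimidines that lets the mTOR pathway set their translation together. Blood formation is known to be sensitive to their dose, since loss of 1 copy of several of them causes Diamond-Blackfan anaemia, a failure of red cell production, and free Rpl5 and Rpl11 bind Mdm2 and stabilise p53.

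Promoter sequences were matched for 64 of the 84 genes in the RefSeq table on build GRCm38.p6, over 300 bases from 250 before to 50 after the start. Those with no entry included Rpl3, Rpl7, Rpl8, Rpl17, Rpl21, Rpl23a, Rpl29, Rpl30, Rpl32, Rpl36, Rplp1, Rps14, Rps20, Rps27a and Rps29. Windows of 30 bases are shown for 8 genes, because they carry letters found in more of these promoters than of all promoters. At least 1 of the 3 sequences was found in 29 of the 64, and the measured members lie on 19 chromosomes. For each sequence, matches were counted anywhere in the 300 bases and not only where the mRNA begins. The sequence CTCTTTC, a form of the pyrimidine run, was found on the transcribed strand of 20.3% of the 64 promoters. It was found on that strand of 4.6% of the promoters of 27025 genes, and on either strand of 28.1% and 9.28%. It is shown in capitals for Rps26 (chr10:128626483-128626512, minus strand), Rpl28 (chr7:4792954-4792983, plus strand) and Rpl35 (chr2:39005113-39005142, minus strand), each written from 5′ to 3′ along the gene.
Rps26: gccgccggatcCTCTTTCgagtcttggctc
Rpl28: ctctcgtgtctCTCTTTCcgtctccggccg
Rpl35: cccgccctttcCTCTTTCtctcgaaccagg

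The sequence CCGGAAGT, which resembles the site of ETS family factors, was found on either strand of 17.2% of the 64 promoters and of 4.31% of all promoters. It is shown in capitals for Rpl41 (chr10:128549206-128549235, minus strand), Rpl31 (chr1:39367848-39367877, plus strand) and Rps6 (chr4:86857440-86857469, minus strand). The first pair stood higher in the irradiated library and Rps6 stood slightly lower.
Rpl41: tagtaaggcagCCGGAAGTcgctgtctcga
Rpl31: ctccccgtgacCCGGAAGTtgtacggctac
Rps6: ttaatctacgcCCGGAAGTaacgcccctct

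The sequence AAGATGGC, which resembles the YY1 site, was found on either strand of 9.38% of the 64 promoters and of 3.19% of all promoters. It is shown in capitals for Rpl7l1 (chr17:46782617-46782646, minus strand) and Rps27 (chr3:90213704-90213733, minus strand). In none of the 8 windows did a match to one of the sequences overlap a match to another, and a match is a description of the letters and not a sign of binding.
Rpl7l1: gaagcaccggaAAGATGGCggaggaagggt
Rps27: aagaccttccgAAGATGGCgaagcaacacg

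Among measured genes with a promoter, the 13 with CTCTTTC on the transcribed strand had a median log2 ratio of irradiated over control level of -0.01 over all cells, and the 48 without it had -0.03. The 8 genes with CCGGAAGT on that strand had 0.04 and the 53 without it had -0.04. These medians lie close together beside the range of single genes given below.

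Of 7686 cell barcodes with 139274656 UMIs in control, 7189 passed the filters, and of 5596 irradiated barcodes with 165119247 UMIs, 5112 did. Kept cells had medians of 16084 and 29615 UMIs and of 4.38% and 3.24% mitochondrial UMIs. By phase scores 49.0% of control and 20.9% of irradiated cells were called G1, and 23.2% and 47.4% were called G2/M. Kit and Ly6a, the genes of c-Kit and Sca1, were present in both libraries at 132 and 73.5 CPM for Kit and at 156 and 218 for Ly6a. The sum of 12 listed markers of neutrophil priming, 9 of them measured, was 2517 CPM in control and 8192 in irradiated cells, that of 11 listed lymphoid markers was 1499 and 541, and that of 7 listed mature neutrophil markers was 347 and 67.3. The libraries shared 11 barcodes.

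Ribosomal protein genes supplied a large and similar share of the mRNA molecules counted in both libraries. They took 36.6% of control UMIs and 35.2% of irradiated UMIs, a log2 ratio of -0.05. Large subunit genes made up 19.7% and 19.4% of UMIs, and small subunit genes 16.9% and 15.9%. The single cells spread far more than the libraries differed, with an SD over cells of 4.0 percentage points in control and 3.81 in irradiated cells, where counting error alone at the median cell is 0.381 and 0.279 points. Intervals and these counting errors cover counting only and leave out variation between mice. The median cell held 6063 ribosomal protein UMIs in control and 10746 in irradiated samples, and cell content and sequencing depth cannot be told apart in that difference.

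Cell classes were named from marker genes after clustering that left ribosomal protein genes out. HSC-like cells (haematopoietic stem cells, with Hlf, Procr and Pdzk1ip1, in a pair of clusters) were 24.6% of control and 6.57% of irradiated cells. Neutrophil-primed-like cells (Elane, Mpo, Prtn3) were 1.61% and 21.1%, and lymphoid-primed-like cells (Dntt, Flt3, Satb1) were 27.4% and 4.30%. With cells of each cluster weighted to the control mix, the irradiated share of ribosomal protein UMIs was 36.5%, against 36.6% in control. With the control mix of cell cycle phases it was 36.1%.

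Within the 4 classes with at least 100 cells in each library, the share was close between libraries. It was 37.1% in control and 37.7% in irradiated HSC-like cells, and 38.4% and 38.6% in lymphoid-primed-like cells. Megakaryocyte-primed-like cells (Pf4, Itga2b, Gp5) had 34.7% and 35.4%. Neutrophil-primed-like cells had 33.8% in each library. A cluster led by the antigen-presentation gene Cd74 and class II genes, which met markers of monocyte and dendritic priming but carries genes of differentiated dendritic cells, had the lowest share of all clusters at 27.6% and 27.2%, in 26 and 76 cells. Erythroid-primed-like cells (Klf1, Car1, Aqp1) had 35.7% in 49 control cells and 37.0% in 496 irradiated cells, too few in control for a comparison of single genes. B lineage-like cells (Vpreb3, Ebf1, Cd79a) had 30.6% in 111 control cells and 33.5% in 24 irradiated cells, the widest gap of any class, and T or NK lineage-like cells had 35.5% in 52 and 36.6% in 65.

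**Figure D1:**
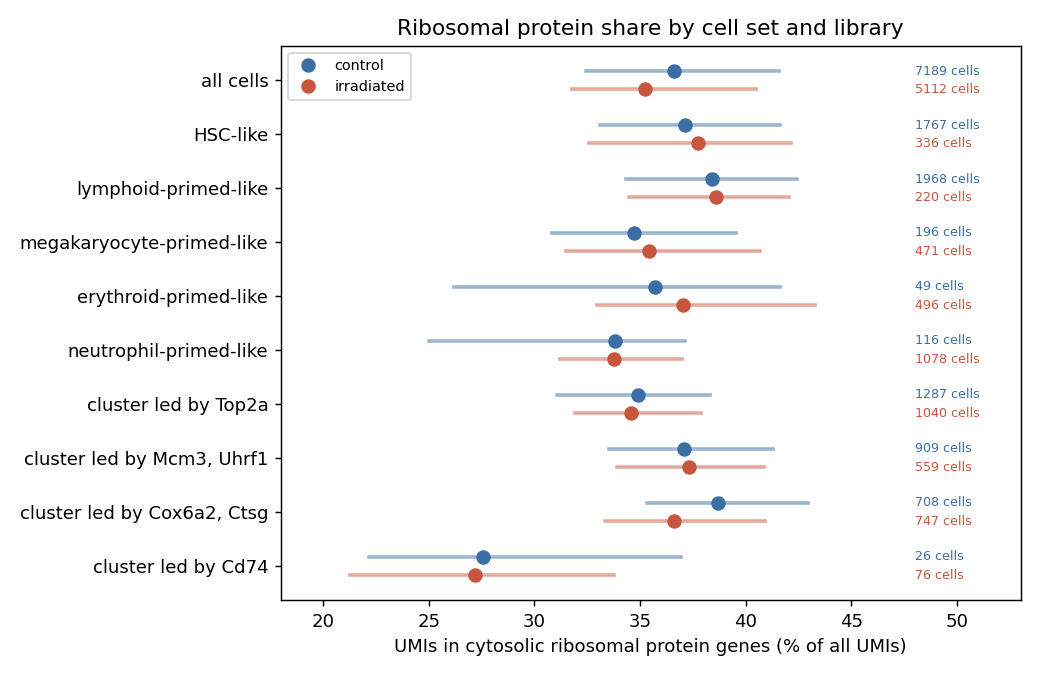
Share of UMIs from the 84 ribosomal protein genes (x axis, percent) in each cell set, for the control (blue) and irradiated (red) library; points are shares over summed cells and lines run from the 10th to the 90th percentile of single cells. The cluster led by Cd74 lies lowest at 27.6% and 27.2%, and the largest gap between libraries among the clusters with at least 100 cells in each is 38.7% against 36.6% in the cluster led by Cox6a2 and Ctsg.

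The control neutrophil-primed-like class was small, with 116 cells, and uneven. In 10 of its cells the ribosomal protein share was below 20%, against 1 of 1078 irradiated cells of the class, and the SD over its cells was 8.71 points against 2.40. The log2 ratio of the summed share, -0.00 from summed UMIs, became 0.09 with each cell weighted equally. It became -0.08 when marker genes were left out of the clustering, so its direction depends on the setting.

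Cells called G1 had a higher ribosomal protein share than cells called S or G2/M in both libraries. The share was 38.4% in control and 38.2% in irradiated G1 cells, 36.5% and 35.7% in S phase cells, and 34.9% and 34.4% in G2/M cells. By depth the share was highest in cells with 10000 to 20000 UMIs, at 37.9% and 37.6%. At 20000 to 30000 UMIs the irradiated share was the higher, with 35.9% in control and 36.8% in irradiated cells. At 30000 to 40000 it was 35.6% in each library. Cells with 40000 to 60000 UMIs had 35.2% and 34.1%, and cells with 60000 or more had 35.4% and 33.0%. Cells with 5000 to 10000 had 37.2% and 35.2%, and the 66 and 59 cells with 1000 to 5000 had 33.4% and 32.5%. The irradiated library had more cells in G2/M and more UMIs per cell, and the part of either in the difference over all cells was not tested beyond the mix-weighted values above.

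The family contained most of the highest transcripts of these cells. Among the 100 highest genes, 74 in control and 73 in irradiated cells were members, and 77 of the 84 had at least 1000 CPM in both. Because reads come from 3′ ends and each molecule counts once, these levels do not scale with transcript length. The highest was Rps24, a small subunit protein, which ranked first of all genes in control with 10384 CPM and had 7843 in irradiated cells. Among other high members, Rpl32 of the large subunit had 8217 and 7668, Rpl13 of the large subunit 8177 and 7675, and Rps20 of the small subunit 7437 and 7263. At the other end, Rpl7l1 had 84.1 and 107 CPM, Rps27rt had 160 and 144, and Rpl13a had 389 and 379. Many of these genes have near-identical copies elsewhere in the genome, and how reads shared with copies were counted is not given in the sources used here, so levels and the order of levels are uncertain.

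Over all cells the members moved little beside other genes. With a ratio of at least 1.2 as the limit, 5 members were higher in the irradiated library, where 26.1% of the 5247 measured genes were. A further 6 members were lower, where 24.1% of measured genes were. The other 70 members, 86.4%, lay within the limit, against 49.8% of measured genes. Of the 155 other genes averaging 500 CPM or more, 44.5% were higher and 12.9% were lower. The median log2 ratio of the members was -0.04 and that of all measured genes was 0.02.

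**Figure D2:**
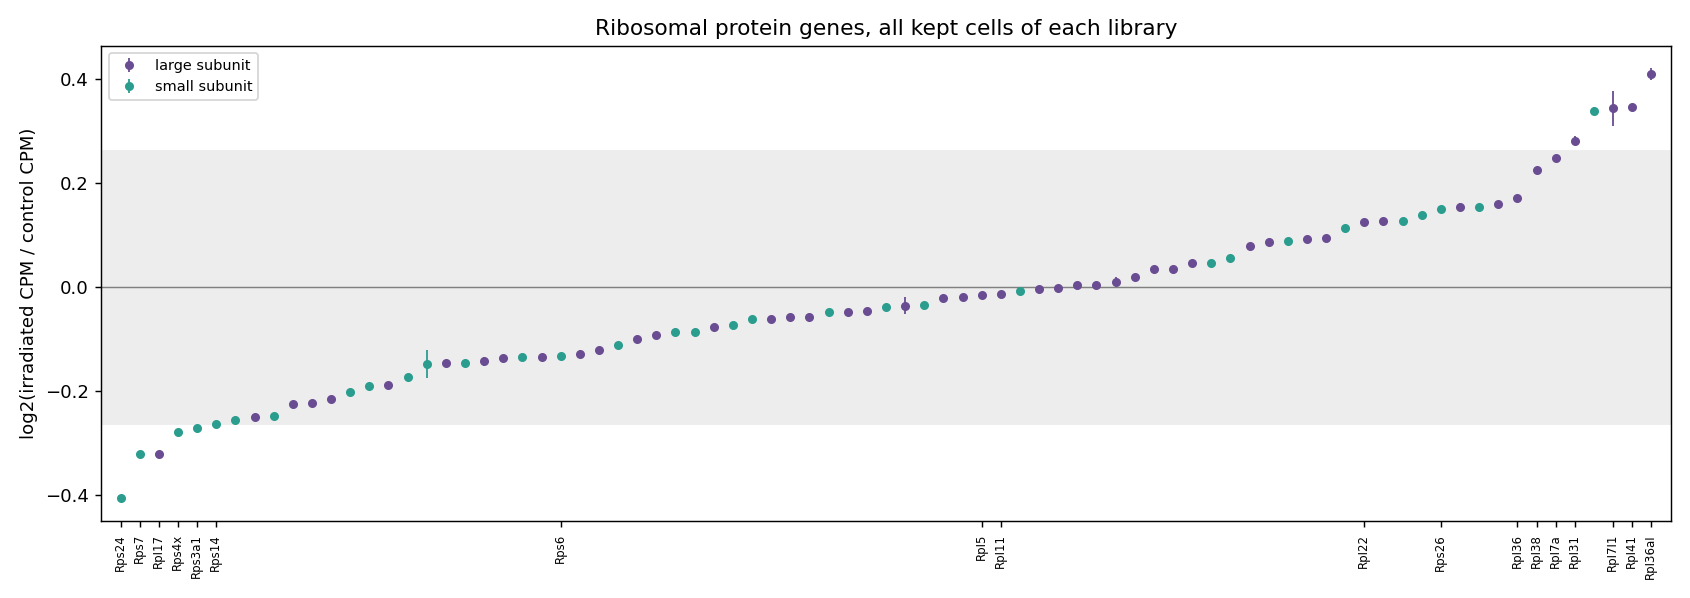
Log2 ratio of irradiated over control CPM (y axis) for the 81 measured ribosomal protein genes, ordered by the ratio, with exact 95% intervals for counting error; the grey band marks ratios within 1.2, and only some genes are labelled. The band holds 70 of 81 genes, with Rps24 lowest at -0.40 and Rpl36al highest at 0.41.

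Small subunit genes lay lower than large subunit genes. Their median log2 ratio was -0.09, with 9 above 0 and 23 below, and 5 of the 6 members past the limit downward were small subunit genes. The large subunit median was -0.01, with 22 above 0 and 27 below, and 4 of the 5 members past the limit upward were large subunit genes.

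Rps24 (ENSMUSG00000025290, chr14:24487125-24496959, plus strand), a Diamond-Blackfan anaemia gene, had the lowest log2 ratio at -0.40 (95% interval -0.41 to -0.40). Rps7, which takes part in maturation of the small subunit and is also mutated in that anaemia, went from 5614 CPM in control to 4494 in irradiated cells, a log2 ratio of -0.32. Rpl17, at the peptide exit tunnel of the large subunit, had 5096 and 4082, also -0.32. These were the 3 lowest of the family. Rps4x, the X-linked Rps4 gene, had 5734 and 4730 (log2 -0.28). Rps3a1 (ENSMUSG00000028081, chr3:86137940-86142702, minus strand), near the mRNA exit side of the small subunit, had 6387 and 5293 (-0.27). Rps14, the small subunit gene whose loss underlies the anaemia of the human 5q deletion syndrome, had 5329 and 4439 (-0.26) and lay at the limit itself. The members just short of the limit were Rps19 at -0.26 and Rpl21 and Rps9 at -0.25.

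On the other side, Rpl36al (ENSMUSG00000049751, chr12:69182731-69184083, minus strand), a near-copy of Rpl36a of the large subunit, had 708 CPM in control and 941 after irradiation, and its log2 ratio was 0.41 (95% interval 0.40 to 0.42). Rpl41 (ENSMUSG00000093674, chr10:128548114-128549305, minus strand), whose coding sequence of 75 bases is the shortest of the family, had 5857 and 7448 (0.35). Both belong to the large subunit. Rpl7l1, a paralog of Rpl7 at a low level, had 84.1 and 107 (0.34, interval 0.31 to 0.38). Rpl31 of the large subunit had 1410 and 1715 (0.28), and Rpl7a, just short of the limit, had 1852 and 2199 (0.25).

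The lower side depended on which cells were compared. Among cells called G1, no member was lower and 4 were higher, where 20.9% of measured genes were lower and 18% higher. Among cells with 10000 to 40000 UMIs in both libraries, 1 was lower and 3 were higher (20% and 16.8% of measured genes). Over cells of the named clusters alone, an alternative added after the data were seen, 16 were lower and 5 were higher (31.0% and 33.5%). Rps24 kept a negative log2 ratio in all 10 alternatives run over all cells, between -0.49 and -0.24, and Rpl36al a positive one between 0.31 and 0.59.

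Within classes, where cells of like identity are set side by side, fewer members passed the limit than the 11 over all cells, and those that did were higher in the irradiated library. All class comparisons draw on the same 2 libraries, so they are not independent of each other. In HSC-like cells, 1767 in control and 336 in irradiated samples, 6 members, among them Rpl41, Rps26, Rpl7a, Rpl36 and Rps28, were higher and none lower, where 12.7% of 5462 measured genes were higher and 13.5% lower. In lymphoid-primed-like cells 3 members, Rpl41 and Rpl36 among them, were higher and none lower (12.4% and 13.8% of measured genes). In megakaryocyte-primed-like cells 3 (Rps26, Rpl38 and Rpl36) were higher and none lower (10.5% and 16.9%). In neutrophil-primed-like cells 2 (Rpl38 and Rpl36) were higher and none lower (9.04% and 10.3%), and that count ran from 0 to 11 over the alternatives.

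Median log2 ratios of the members were 0.02 in HSC-like, 0.00 in lymphoid-primed-like, 0.04 in megakaryocyte-primed-like and -0.01 in neutrophil-primed-like cells. The corresponding medians of all measured genes were 0.00, -0.00, -0.02 and 0.01. Of the members, 92.6%, 96.3%, 96.3% and 97.5% lay within the limit, against 73.9%, 73.7%, 72.6% and 80.6% of measured genes. These shares are not matched for level, since measured genes reach down to 20 CPM, where counting error is larger than for most members. The share among other genes of 500 CPM or more was not computed within classes.

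**Figure D3:**
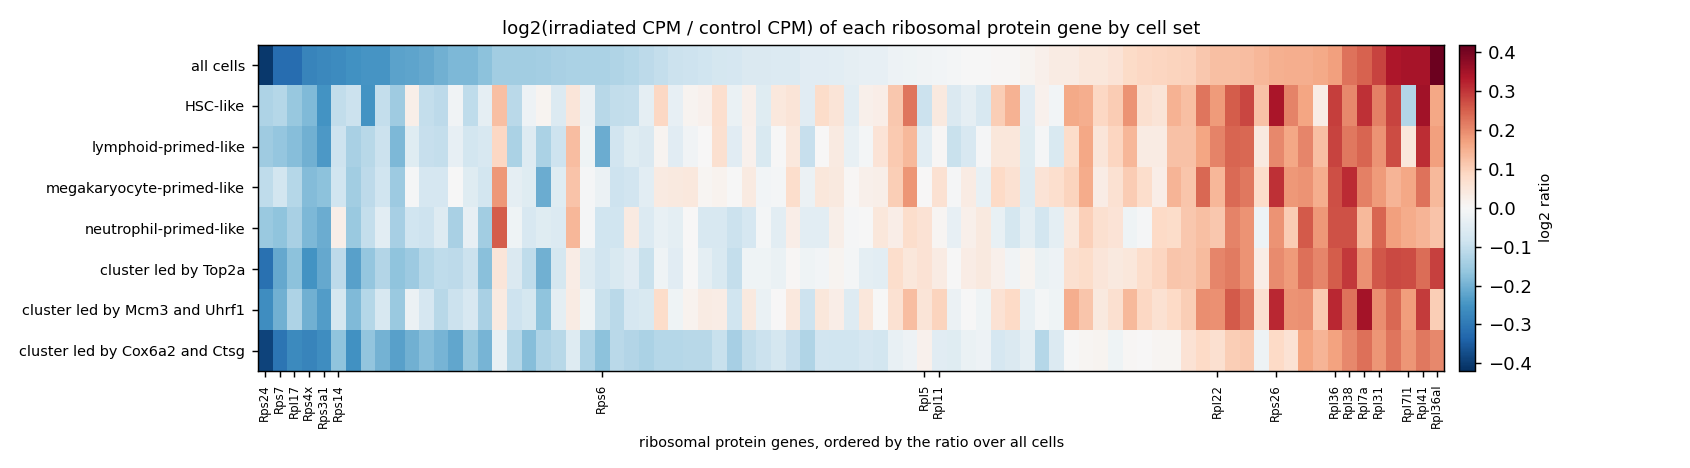
Log2 ratio of irradiated over control CPM (colour, red higher and blue lower in the irradiated library) for each of the 81 measured ribosomal protein genes (columns, ordered by the ratio over all cells) in 8 cell sets (rows). Colours are paler within the classes than over all cells at the Rps24 end, where Rps24 itself is -0.40 over all cells and -0.13 in HSC-like cells.

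Rps24 differed among classes. Its level was 10436 CPM in control HSC-like and 9537 in irradiated HSC-like cells (log2 -0.13), and 11803 and 10644 in lymphoid-primed-like cells (-0.15). In neutrophil-primed-like cells it was 7598 and 6826 (-0.15). Neutrophil-primed-like cells, 21.1% of irradiated and 1.61% of control cells, had less Rps24 than HSC-like cells in both libraries, and the ratio within each of these classes was nearer 0 than over all cells. Rps7 had log2 ratios of -0.12, -0.16 and -0.17 in the same 3 classes.

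Rps3a1 and Rps4x, by contrast, kept most of their difference within classes. Rps3a1 had 6680 CPM in control and 5608 in irradiated HSC-like cells (log2 -0.25), and its ratio was -0.24 in lymphoid-primed-like, -0.17 in megakaryocyte-primed-like and -0.21 in neutrophil-primed-like cells. Rps4x had 5813 and 5117 in HSC-like cells (-0.18), and -0.20, -0.18 and -0.19 in the other classes. Neither passed the limit in a class. Rpl21 of the large subunit was also low in HSC-like cells (5653 and 4748, -0.25), and Rps6, the substrate of the S6 kinases, in lymphoid-primed-like cells (3173 and 2744, -0.21). Rpl22l1, a paralog of Rpl22, was the lowest in megakaryocyte-primed-like cells (1499 and 1297, -0.21).

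Rpl41 and Rps26 had the highest ratios in HSC-like cells. Rpl41 went from 5010 CPM in control to 6398 in irradiated HSC-like cells. Its log2 ratio there was 0.35, with an interval of 0.33 to 0.37, and it was 0.31 in lymphoid-primed-like, 0.23 in megakaryocyte-primed-like and 0.14 in neutrophil-primed-like cells. Rps26, a small subunit protein at the mRNA exit and a Diamond-Blackfan anaemia gene, had 3808 and 4834 in HSC-like cells (0.34), and 0.20, 0.31 and 0.19 in the other 3. Over all cells Rps26 was only 0.15. Rpl7a had 1741 and 2154 in HSC-like cells (0.31).

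Rpl36 and Rpl38 of the large subunit lay at similar ratios in every class. Rpl36 had 4677 and 5724 CPM in HSC-like cells (0.29), and log2 ratios of 0.28, 0.27 and 0.27 in lymphoid-, megakaryocyte- and neutrophil-primed-like cells. Rpl38, known for a role in translating Hox mRNAs in the embryo, had 3754 and 4321 in HSC-like cells (0.20), then 0.22, 0.31 and 0.27. Rps21 of the small subunit had 4412 and 5272 in neutrophil-primed-like cells (0.26).

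Clusters with no class name gave the same picture in part. In a dividing cluster led by Top2a, 4 members were higher and 1 lower, where 16.7% of measured genes were higher and 19.0% lower. In a cluster led by the replication genes Mcm3 and Uhrf1, 4 were higher and none lower (11.8% and 13.6%). The cluster led by Cox6a2 and the granule protease gene Ctsg stood apart, with none higher and 4 (Rps24, Rps7, Rpl17 and Rps4x) lower (19.3% and 13.6%). Its leading genes also included Mpo of the neutrophil list, Dntt and Ighm of the lymphoid list, and Irf8, Ly86 and Mpeg1 of the monocyte and dendritic list. Its ribosomal protein share was 38.7% in 708 control cells and 36.6% in 747 irradiated cells, its median log2 ratio was -0.07, and Rps24 was at -0.39 in it. The share of cells called G2/M in that cluster was 13.2% in control and 27.8% in irradiated samples, and its part in the difference was not tested.

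More members, and a larger share of all measured genes, passed the limit between neutrophil-primed-like and HSC-like cells than between libraries within a class. Neutrophil-primed-like cells were set against HSC-like cells within each library, which gives a pair of comparisons that share no cells. In control 5 members were higher and 17 lower in neutrophil-primed-like cells, where 37.0% of 5308 measured genes were higher and 38.8% lower. In the irradiated library 5 were higher and 23 lower (36.7% and 38.7% of 5230 genes). In both libraries together, 5 members were past the limit upward and 13 downward, and the share of all genes past it in both was not computed. The log2 ratios of the 81 members in one library correlated with those in the other at Pearson r = 0.94, across genes, which are not independent replicates. Neutrophil-primed-like cells had a median of 42761 UMIs against 11381 in HSC-like cells of the control library. Of neutrophil-primed-like cells 64.0% in control and 62.5% in irradiated samples were called G2/M, against 3.77% and 7.65% of HSC-like cells. The part of phase or depth in this contrast was not tested.

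**Figure D4:**
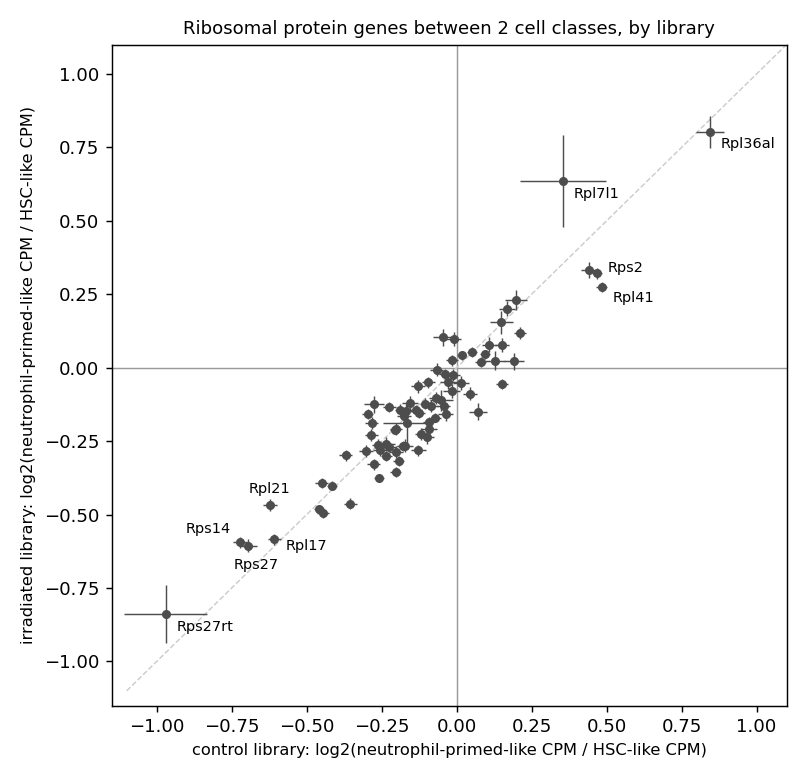
Log2 ratio of CPM in neutrophil-primed-like over HSC-like cells for each of the 81 measured ribosomal protein genes, in the control library (x axis) and the irradiated library (y axis), with exact 95% intervals for counting error; the dashed line marks equal values. Rpl36al lies at the upper end (0.84 and 0.80) and Rps27rt at the lower end (-0.97 and -0.84) in both libraries.

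Rpl36al had the highest ratio of neutrophil-primed-like over HSC-like cells in both libraries. It had 581 CPM in control HSC-like and 1043 in control neutrophil-primed-like cells, and 650 and 1133 in the irradiated library. Its log2 ratio of irradiated over control was 0.16 in HSC-like and 0.12 in neutrophil-primed-like cells, against 0.41 over all cells. Rpl41 (0.48 in control and 0.27 in irradiated cells), Rps2 (0.47 and 0.32) and Rpl7l1 (0.36 and 0.63) were also higher in neutrophil-primed-like cells in both libraries.

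Rps27rt, a retrogene copy of Rps27, was lowest there, with 194 CPM in control HSC-like and 99.0 in control neutrophil-primed-like cells, and 211 and 118 in the irradiated library. Its parent Rps27, a zinc finger protein of the small subunit, was also lower there, with 4077 and 2520 in control and 4220 and 2774 in irradiated cells. Rps14 had log2 ratios of -0.72 and -0.59, Rpl21 of -0.62 and -0.47, and Rpl17 of -0.61 and -0.58. The 3 that were lowest over all cells, Rps24, Rps7 and Rpl17, were all lower in neutrophil-primed-like cells (Rps24 -0.46 and -0.48, Rps7 -0.44 and -0.49).

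Erythroid-primed-like cells had a partly different set, read with the 49 control cells in mind. Against HSC-like cells 7 members were higher in control and 8 in the irradiated library, where 34.1% and 36.3% of measured genes were. The members lower were 6 and 4, where 32.8% and 34.6% of measured genes were. In both libraries together 7 were higher and 3 lower, and the share of all genes past the limit in both was not computed. Rpl14 of the large subunit had 3140 CPM in control HSC-like and 4083 in control erythroid-primed-like cells, and 3112 and 4362 in the irradiated library. Rps2 (0.40 and 0.37), Rpl41 (0.40 and 0.37) and Rpl36al (0.40 and 0.57) were higher as well, and Rps14 lower (-0.42 and -0.29). Megakaryocyte-primed-like cells had 2 members higher in each library, where 31.0% of measured genes in control and 31.7% in the irradiated library were. The members lower were 5 in control and 4 in the irradiated library, where 23.0% and 26.6% of measured genes were. No member was higher in both libraries, and 4 (Rps27rt, Rps27, Rps9 and Rpl37) were lower in both. The share of all genes past the limit in both was not computed. Lymphoid-primed-like cells had none past the limit in either library, where 7.86% and 11.9% of measured genes were higher and 16.4% and 23.1% lower.

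Across the 5 classes, the ratio of the highest to the lowest class level of a member had a median of 1.19 in control and 1.2 in the irradiated library. It reached 1.5 for 7 members in control and 8 in the irradiated library, and no member reached 2. The share of all measured genes that reached these ratios was not computed.

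Proteins of the 5S particle and of the stalk were near 0. Rpl5 and Rpl11, which carry the 5S RNA into the large subunit and bind Mdm2 when free, had 2096 and 2074 and 4531 and 4492 CPM over all cells, each a log2 ratio of -0.01. In HSC-like cells Rpl5 was at -0.09 and Rpl11 at 0.04. Of the stalk, which recruits the elongation factors, the anchor Rplp0 had 4957 and 5030 (0.02), Rplp1 had 7276 and 6695 (-0.12) and Rplp2 had 3961 and 4231 (0.10). Rplp1 and Rplp2 form pairs on the ribosome, and their ratios in HSC-like cells were -0.10 and 0.13.

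Paralogs of the family were measured at levels under those of their partners. Rpl22, the large subunit protein needed in T cell development, had 2821 and 3079 CPM (0.13), and its paralog Rpl22l1 had 1471 and 1333 (-0.14), so their ratios had opposite signs. Rpl36a had 2923 and 2810 (-0.06), against 0.41 for Rpl36al. Rpl7 had 3038 and 2782 (-0.13), against 0.34 for Rpl7l1. Rpl7l1 alone of the 6 highest members had a negative ratio in HSC-like cells, -0.12 with an interval of -0.29 to 0.04. The tissue-restricted forms Rpl3l and Rpl39l had 111 and 51 UMIs in control and 81 and 141 in irradiated cells, under the limit for a measured gene, and Rpl10l had 0 UMIs in both.

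Of the 19 Diamond-Blackfan anaemia genes, all members, 2 were higher over all cells, Rpl31 among them, and 2 lower (Rps24 and Rps7), with a median log2 ratio of -0.03, where 26.1% of measured genes were higher and 24.1% lower. In HSC-like cells 3 were higher and none lower, with a median of 0.04, where 12.7% and 13.5% of measured genes were. Rps19, the gene most often mutated in that anaemia, had 6369 and 5335 CPM over all cells (-0.26) and -0.09 in HSC-like cells.

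Short members lay higher than long ones. Annotated coding length was under 400 bases for 28 measured members, a limit chosen after the values were seen, and at least 400 for 53. Median log2 ratios were 0.07 and -0.06 over all cells, 0.14 and -0.04 in HSC-like, 0.13 and -0.05 in lymphoid-primed-like, 0.14 and 0.00 in megakaryocyte-primed-like, and 0.11 and -0.04 in neutrophil-primed-like cells. Spearman's rho of ratio against coding length over the 81 members was -0.27 over all cells and -0.55 in HSC-like cells, as a description across genes that share their libraries. Other genes with at least 500 CPM showed the same sign, with rho of -0.33 over 153 genes in all cells and -0.41 over 128 genes in HSC-like cells. Rpl41, Rps26, Rpl36, Rpl38, Rps21 and Rps28 are among the short members, and Rps3a1 (792 bases) and Rps4x (789 bases) among the long ones.

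**Figure D5:**
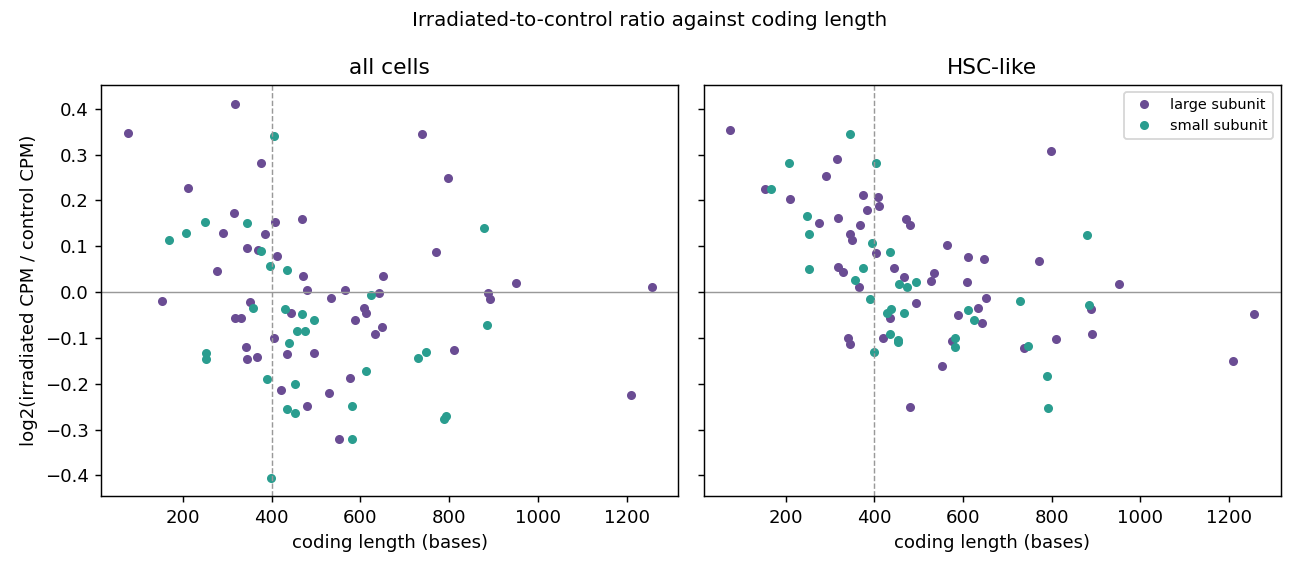
Log2 ratio of irradiated over control CPM (y axis) against annotated coding length in bases (x axis) for the 81 measured ribosomal protein genes, over all cells (left) and in HSC-like cells (right); the dashed line marks 400 bases. In HSC-like cells the short members have a median of 0.14 and the long members of -0.04.

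Genes that work with the ribosome differed between libraries more than the ribosomal proteins over all cells. Of all measured genes 26.1% were higher and 24.1% lower. Of 70 measured ribosome biogenesis factors 41 were higher and none lower, with a median log2 ratio of 0.32. Pno1 and Mrto4, which act in maturation of the small and large subunit, had log2 ratios of 0.79 and 0.74, and Gnl3l and Taf1d had the lowest at -0.21 and -0.07. Of 74 mitochondrial ribosomal proteins, which are encoded in the nucleus, 58 were higher and none lower, with a median of 0.41 and with Mrpl20 at 0.71. Of 13 genes encoded in mitochondrial DNA, 8 were lower and 1 higher, with a median of -0.38.

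Among 37 elongation and initiation factors 14 were higher and 2 lower, beside the same 26.1% and 24.1% of all measured genes. Eif5a, which relieves stalled ribosomes, had 1026 and 1583 CPM (0.63) and Eif2s1, the subunit of eIF2 that stress kinases phosphorylate, 145 and 215 (0.56). Tpt1 had 5679 and 4182 (-0.44) and Eif4a2, an RNA helicase, 155 and 91.6 (-0.76). Eef1a1, which brings aminoacyl-tRNA to the ribosome, had 7836 and 6572 (-0.25). Of 11 measured regulators of ribosomal protein synthesis 2 were higher, Eif4ebp1 (0.30) and Akt1 (0.28), and 1 was lower.

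Within HSC-like cells the 3 lists of nuclear genes with most members lay closer to 0. Biogenesis factors had 2 higher and 5 lower of 62 with a median of -0.03, mitochondrial ribosomal proteins 13 higher and 2 lower of 71 with a median of 0.09, and elongation and initiation factors none higher and 2 lower of 37 with a median of 0.02 (12.7% of all measured genes were higher and 13.5% lower). The genes of mitochondrial DNA did not move toward 0 to the same extent, with none higher and 8 lower of 13 and a median of -0.34. In the dividing cluster led by Top2a they were not near 0, with 43 of 70 biogenesis factors (median 0.31) and 43 of 74 mitochondrial ribosomal proteins (0.28) higher and none lower, where 16.7% of measured genes were higher. The cluster led by Cox6a2 and Ctsg had 20 of 72 biogenesis factors higher and 1 lower (0.17), and 30 of 74 mitochondrial ribosomal proteins higher and none lower (0.23), where 19.3% of measured genes were higher. Fau and Rack1 encode or carry ribosomal proteins under other names. Fau had -0.07 and Rack1 -0.11 over all cells.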

How the data were processed

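The deposited values are raw counts of UMIs, 1 whole number per gene and cell barcode. Cell Ranger 2.1.1 and mouse build mm10 are named in the submitters' processing notes, and version 3.1.0 stands in the headers of the deposited matrices. Barcodes were kept with at least 1000 UMIs, 500 genes and at most 10% mitochondrial UMIs. Scrublet marked 0.0139% and 0.312% of cells, far below the expected 6%, so doublet removal has not worked. UMIs of the kept cells were summed per library or class and divided by the total to give counts per 1000000 UMIs (CPM). Log2 ratios carry exact conditional 95% Clopper-Pearson intervals, checked on simulated data.

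A gene counted as measured from 20 CPM on average over the 2 libraries, and a ratio of at least 1.2 as higher or lower. Cells were clustered with scanpy 1.11.5 and leidenalg 0.10.2 on 2000 variable genes (ribosomal protein, mitochondrial, cell cycle and sex-linked genes left out), 30 components and 15 neighbours from each library at resolution 1. A cluster was named when at least 3 markers of a list stood among its 25 leading genes and at least 3 were detected in 10% of its cells. It stayed unnamed where another list had more markers among its 10 leading genes. Classes with at least 100 cells in each library were compared. Phases were scored after thinning each cell to 5000 UMIs, which left out 66 control and 59 irradiated cells. Coordinates and coding lengths are from GENCODE M21 on GRCm38, where 30934 of 31053 gene identifiers had an entry.

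Members and lists were chosen with earlier results of these data known. Named members are the 6 highest and 6 lowest ratios over all cells, the 5 highest levels, the 3 highest and 3 lowest ratios per class, paralogs, the 5S particle and the stalk. In other lists they are the 2 highest and 2 lowest. Members named for differences between classes, and Fau, Rack1, Eef1a1, Rps19, Rps28 and Rps9, were chosen after their values were seen. Alternatives covered filters, doublets, thinning, cell weighting, scaling, depth, phase, clustering and the limits. Some genes are not reported here, though they stay in the counts and medians.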

Additional observations from a re-analysis of the deposited data

Results flagged for a closer look

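Rpl27-ps3, a row named as a pseudogene of the large subunit gene Rpl27 and therefore outside the family as defined, was at 47.4 CPM in the control library and at 58.2 CPM after irradiation. It was taken up because a row outside the main measurement held more signal in the irradiated library than in control. Its log2 ratio was 0.29, and that of Rpl27 was 0.15. Whether its UMIs belong to Rpl27 was not tested. Of the 5 measured pseudogene rows it alone passed the limit, and their median log2 ratio was 0.08. Rpl10-ps3 and Rps12-ps3 had positive ratios (0.14 and 0.08), and Rpl36a-ps1 and Rpl9-ps6 had negative ones (-0.11 and -0.24).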

How the results depend on the processing

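No paired analysis was possible because each group has 1 library, both of them numbered replicate 1. No result changed sign past the limit. The log2 ratio of the summed members over all cells, -0.0538, was negative in all 12 alternatives, and those that moved it gave -0.0485 (5% mitochondrial limit), -0.0465 (thinning), -0.0463 (cells weighted equally), -0.112 (denominator without mitochondrial and ribosomal protein UMIs), -0.0758 (median-of-ratios scaling), -0.0120 (10000 to 40000 UMIs) and -0.00726 (G1 cells). Alternatives added after the data were seen gave -0.0832 (named clusters only), -0.00354 (control mix of clusters) and -0.0202 (control mix of phases). The count of members lower, 6, became 12 with the other denominator, 1 at 10000 to 40000 UMIs, 0 in G1 cells, 0 at a ratio of 1.5 and 16 over named clusters, and the count higher, 5, became 3 at 10000 to 40000 UMIs and 0 at a ratio of 1.5. For 10000 to 40000 UMIs, G1 cells and named clusters, the shares of all genes past the limit are given above. For the other alternatives, those within classes included, that share was not computed, so their counts of members have nothing beside them.

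In HSC-like cells the ratio of 0.0229 became 0.0153 (thinning), 0.00508 (equal weights), 0.0149 (denominator), 0.0180 (scaling), 0.0345 (10000 to 40000 UMIs), 0.0257 (G1) and 0.0310 (5% mitochondrial limit, added later). Members lower, 0, became 1 without marker genes in the clustering, 1 with each cell named by its own markers, 1 with thinning and 2 with equal weights. In lymphoid-primed-like cells 0.00591 became -0.00287 (resolution 0.5), 0.00136 (no marker genes), -0.0329 (own markers), -0.000168 (thinning), -0.00191 (equal weights), -0.00612 (denominator) and 0.00914 (scaling), so its sign depends on the setting, and with own markers 1 member was higher and 2 lower. In megakaryocyte-primed-like cells 0.0296 became 0.0448 (no marker genes), 0.00698 (own markers), 0.0376 (thinning), 0.0350 (equal weights), 0.0484 (scaling), 0.0385 (10000 to 40000 UMIs), 0.0550 (G1) and 0.0327 (5% limit), with 5 members higher by own markers, 7 with thinning and 7 in G1. At resolution 0.5 its cells joined erythroid cells and gave no value.

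Neutrophil-primed-like cells depended most on the setting. Their ratio of -0.000916 became -0.0754 (resolution 0.5), -0.0834 (no marker genes), -0.0590 (own markers), 0.0676 (thinning), 0.0927 (equal weights), -0.00586 (denominator), -0.00923 (scaling), 0.0867 (10000 to 40000 UMIs), 0.111 (G1, with 8 control cells) and -0.00554 (5% limit). Members higher, 2, became 0, 0, 0, 10, 8, 1, 0, 10, 11 and 0 in the same order, and members lower, 0, became 5 (resolution 0.5), 6 (no marker genes), 2 (own markers) and 1 (G1). The cause was not tested for any of these, and the share of all genes past the limit was not computed in these settings. Single members over all cells are given as ranges with their values, and 16084 and 29615 UMIs per median cell limit single genes of low level such as Rpl7l1.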
